A study of Homo sapiens with 14 samples.

Results

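TYROBP, FCER1G, SYK, AIF1, LST1 and LAPTM5, a group of genes of ITAM signalling and myeloid activation, were followed in Kasumi-1 cells after knockdown of AML1-ETO. The members were all probe sets whose only gene symbol was 1 of these 6, which gave 16 of the 22283 probe sets of the array and 6 of 11963 genes with a probe set of their own. TYROBP and FCER1G had 1 probe set each, SYK had 2, AIF1 had 4, LST1 had 6 and LAPTM5 had 2. Of the 16, 15 passed the filter on low signal and were tested, and SYK 209269_s_at did not pass.

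Kasumi-1 is an established human acute myeloid leukaemia line with the AML1-ETO fusion, which joins the DNA-binding domain of RUNX1 to most of RUNX1T1 (ETO). All groups were taken at 96 h. The AML1-ETO siRNA was delivered by a lipid reagent (siLentFect, 240 nM) for 3 arrays and by nucleofection (Amaxa electrical transfection, 1.5 µM) for 3 arrays. A control siRNA against firefly luciferase, a gene that human cells lack, was delivered by lipid for 3 arrays and by nucleofection for 2, and the further groups were nucleofection with no siRNA (1 array) and untransfected cells (2 arrays). Dose and method changed together and cannot be told apart, all groups come from the same line, and the labels do not say whether replicates were separate cultures, so the p-values measure only the spread between these arrays. In these bulk samples, fewer cells of a type and less RNA per cell cannot be told apart.

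ITAM signalling starts at receptors with short tails that borrow a small adaptor. TYROBP (DAP12) and FCER1G (the Fc receptor gamma chain) are such adaptors; Src family kinases phosphorylate tyrosines in their ITAM, an activation motif in the tail, and the kinase SYK then docks there and passes the signal on. AIF1 (IBA1) is a calcium- and actin-binding protein of macrophages and microglia, LST1 is a small transmembrane protein of leukocytes, and LAPTM5 is a lysosomal membrane protein of blood cells that promotes the degradation of antigen receptors in lymphocytes.

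Promoter sequence is shown first because AML1-ETO meets DNA through its RUNX1 part. The windows came from RefSeq on build GRCh38.p14, and each covered the 250 bases before a gene's annotated start and 50 bases after it. The 6 genes had 11 windows: 1 each for TYROBP, FCER1G and LAPTM5, 2 for AIF1, and 3 each for SYK and LST1. Both strands were searched for TGTGGT (the RUNX core), GAGGAA (a PU.1 type motif) and TTNNGNAA (a C/EBP type motif), and the last could overlap the others. Capitals mark matches on either strand. The 250 bases before the start follow for the TYROBP, FCER1G and second AIF1 windows, whose genes held a RUNX core, then for the first LST1 window and for LAPTM5, whose 250 bases held no match to any motif.
TYROBP, chr19:35908296-35908545, minus strand: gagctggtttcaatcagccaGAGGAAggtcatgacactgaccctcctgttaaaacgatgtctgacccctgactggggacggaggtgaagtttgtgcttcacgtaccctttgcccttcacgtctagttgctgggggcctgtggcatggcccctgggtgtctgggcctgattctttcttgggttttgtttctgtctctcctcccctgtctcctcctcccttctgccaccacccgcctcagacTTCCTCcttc
FCER1G, chr1:161215045-161215294, plus strand: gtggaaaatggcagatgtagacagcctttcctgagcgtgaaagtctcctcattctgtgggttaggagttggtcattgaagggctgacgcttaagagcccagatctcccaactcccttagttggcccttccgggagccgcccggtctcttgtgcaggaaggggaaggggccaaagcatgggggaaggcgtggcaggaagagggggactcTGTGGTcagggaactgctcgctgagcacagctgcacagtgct
AIF1, chr6:31615741-31615990, plus strand: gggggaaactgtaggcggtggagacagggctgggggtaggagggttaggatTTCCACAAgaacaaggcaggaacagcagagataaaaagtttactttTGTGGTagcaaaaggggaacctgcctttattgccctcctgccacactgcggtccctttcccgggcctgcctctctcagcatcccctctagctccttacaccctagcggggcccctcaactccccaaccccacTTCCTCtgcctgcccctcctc
LST1, chr6:31586027-31586276, plus strand: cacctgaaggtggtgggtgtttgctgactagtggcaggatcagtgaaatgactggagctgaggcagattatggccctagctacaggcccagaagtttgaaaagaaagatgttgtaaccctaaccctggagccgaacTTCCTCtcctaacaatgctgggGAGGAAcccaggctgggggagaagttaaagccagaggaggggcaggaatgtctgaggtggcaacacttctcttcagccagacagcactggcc
LAPTM5, chr1:30757775-30758024, minus strand: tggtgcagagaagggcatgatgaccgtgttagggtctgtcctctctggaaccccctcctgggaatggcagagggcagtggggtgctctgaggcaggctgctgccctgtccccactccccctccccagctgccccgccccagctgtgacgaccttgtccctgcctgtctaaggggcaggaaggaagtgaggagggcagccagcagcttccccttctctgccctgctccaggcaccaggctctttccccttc

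TGTGGT stood in 3 of the 11 member windows, in 3 genes, against 13.1% of 35116 windows of the same length. It began 42 bases after the TYROBP start, in the last 30 bases of that window, acatcccaccggcccttacacTGTGGTgtc. It began 42 bases before the FCER1G start and 153 bases before the second AIF1 start. GAGGAA was present in 8 of 11 member windows, covering TYROBP, SYK, AIF1 and LST1, and in 27.9% of all windows. TTNNGNAA was present in 4 of 11 member windows, in SYK, AIF1 and LST1, and in 36.8% of all windows. The first and second SYK windows share bases, and a match describes letters in a window only.

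The signals are the deposited MAS5 intensities, a linear scale on which every array had a mean of 138.5. For the tests, signals under 20 were raised to 20 before log2 was taken, so differences of dim probe sets are understated, and where every array of a group lay at or under 20 the difference is a lower bound on its size. Adjusted p-values are limma's, adjusted by Benjamini-Hochberg over all 13329 probe sets tested, and a probe set was called at an adjusted p below 0.05. Array medians were 26.0 to 31.5, and 38.3% to 44.2% of probe sets lay at or below 20. RUNX1T1, the partner gene in the fusion, had signals of 400, 426 and 502 with AML1-ETO siRNA by lipid, against 540, 560 and 567 with luciferase siRNA by lipid (probe set 205529_s_at). By nucleofection its signals were 318, 328 and 251 with AML1-ETO siRNA, against 644 and 763 with luciferase siRNA. The array without siRNA stood at 582 and the untransfected arrays at 619 and 514. The log2 difference was −1.24 by nucleofection (adjusted p = 0.00306) and −0.34 by lipid (adjusted p = 1), and the probe set detects the normal RUNX1T1 transcript as well as the fusion.

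The first comparison asked how the 6 genes differed between AML1-ETO and luciferase siRNA, as the mean of both transfection methods. Of the 15 tested member probe sets, 12 rose and 0 fell, and these 12 belonged to TYROBP, AIF1, LST1 and LAPTM5. Of all probe sets tested, 0.855% rose in this comparison. The median difference was 1.57 over the 15 tested member probe sets and −0.07 over all probe sets tested. FCER1G, SYK and the dim AIF1 probe set 207823_s_at did not pass. Counting only the highest-mean probe set of each gene, 4 of 6 genes rose, while 120 of all genes so fitted were called in either direction.

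**Figure D1:**
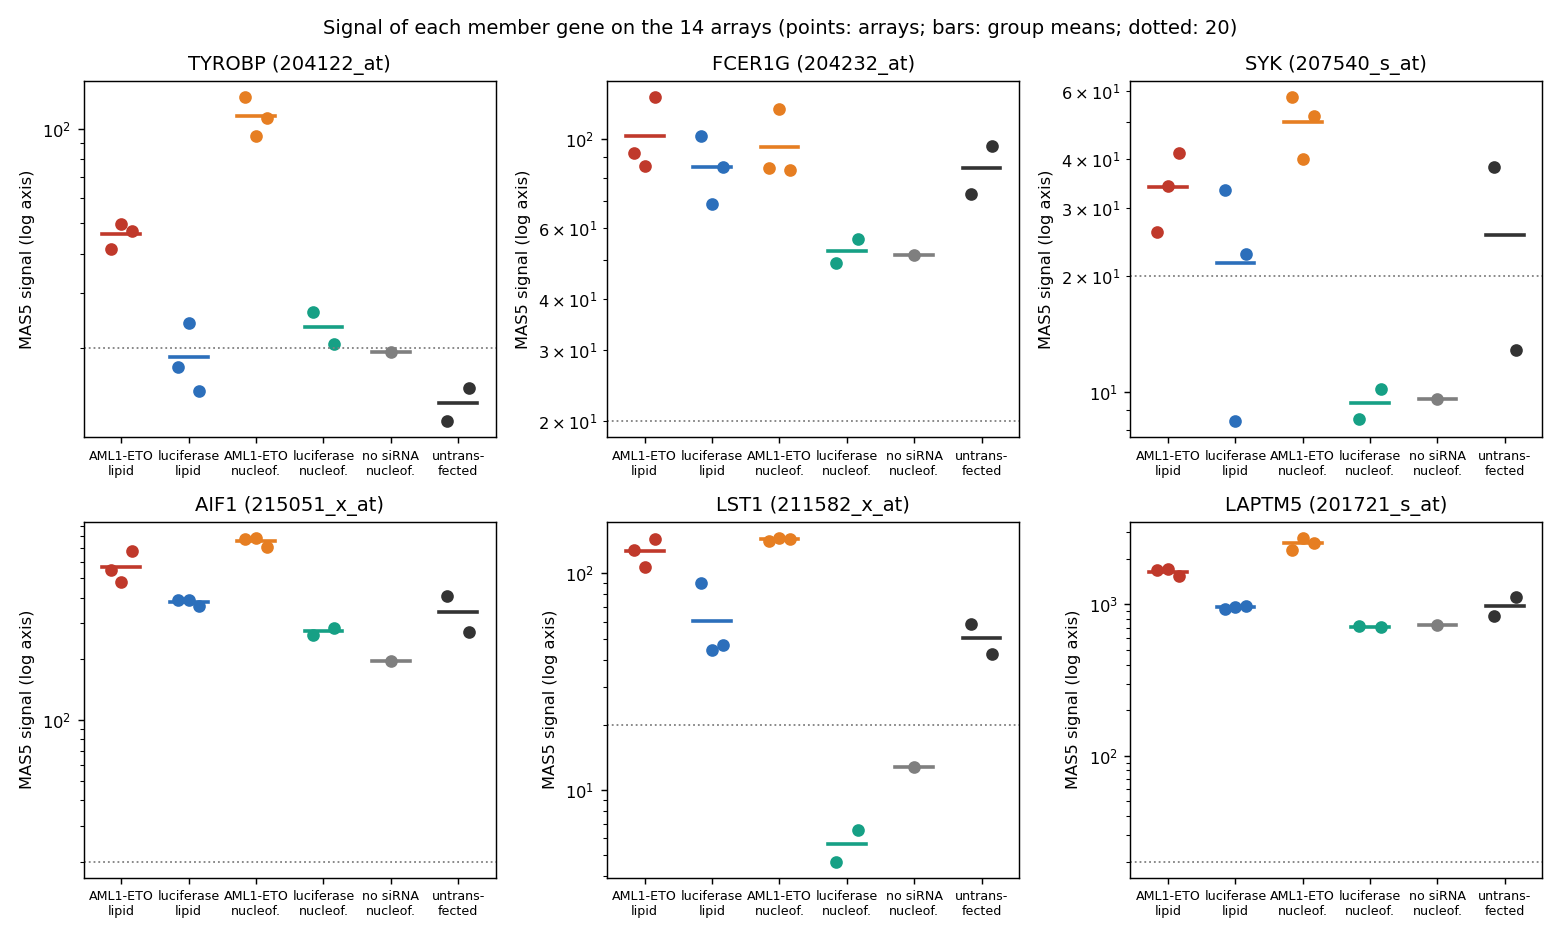
Deposited signal (log axis) of 1 probe set per gene on all 14 arrays, with points for arrays, bars for group means and a dotted line at 20, below which signals were raised to 20 for the tests. For LST1 the probe set drawn is 211582_x_at, chosen as the lowest LST1 probe set with luciferase siRNA by nucleofection. For the other genes it is the tested probe set with the highest mean signal. TYROBP and LAPTM5 stand highest with AML1-ETO siRNA by nucleofection, next highest with AML1-ETO siRNA by lipid, and lower in the 4 other groups.

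TYROBP showed this in the adaptor itself. Its signals were 41.4, 49.8 and 47.1 with AML1-ETO siRNA by lipid, against 17.4, 24.0 and 14.7 with luciferase siRNA by lipid (204122_at). By nucleofection they were 125.9, 94.4 and 107.7 with AML1-ETO siRNA, against 26.1 and 20.6 with luciferase siRNA. All 6 AML1-ETO arrays lay above all 8 others, since the array without siRNA stood at 19.4 and the untransfected arrays at 11.8 and 15.0. The mean log2 difference was 1.67 ± 0.12 (SE, adjusted p = 9.24e-06), a 3.18-fold higher level. By method it was 1.11 ± 0.16 with lipid (adjusted p = 0.0227) and 2.23 ± 0.18 with nucleofection (adjusted p = 2.69e-05).
Because 2 of the 3 luciferase lipid arrays lay under 20, the lipid difference of TYROBP is understated. Its lipid call was lost under 12 of the 22 alternative settings that gave it a value, 7 of which left out 1 array (any of the 6 lipid arrays with an siRNA, or replicate 3 of AML1-ETO nucleofection), with adjusted p-values up to 0.182. The filter took the mean over all 14 arrays, and the lowest geometric mean signal tested was 22.5. Outside the AML1-ETO groups the group geometric means of TYROBP, after signals under 20 were raised, were 20 to 23.2. Its place among the tested probe sets thus rested on the AML1-ETO arrays. Without the filter its lipid difference had an adjusted p of 0.0702.

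FCER1G, the other adaptor, did not pass the test in any comparison as fitted on all 14 arrays. By lipid its signals were 92.5, 85.5 and 126.8 with AML1-ETO siRNA, against 101.4, 69.0 and 84.9 with luciferase siRNA (204232_at), and the groups overlapped. By nucleofection they were 84.6, 118.6 and 83.8 with AML1-ETO siRNA, against 49.3 and 56.4 with luciferase siRNA, and did not overlap. The untransfected arrays stood at 73.2 and 95.8, within the range of the AML1-ETO arrays or just under it, and the array without siRNA at 51.4. The low FCER1G values were thus those of nucleofected cells without the AML1-ETO siRNA. The log2 difference was 0.84 ± 0.24 by nucleofection (adjusted p = 0.0917) and 0.25 ± 0.21 by lipid (adjusted p = 1), and 0.55 ± 0.16 as the mean (adjusted p = 0.149). With quantile normalization the mean passed at 0.62 ± 0.14 (adjusted p = 0.0468). The nucleofection difference passed with quantile normalization (adjusted p = 0.0262) and with arrays centred on their medians (adjusted p = 0.0416).

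SYK, the kinase that binds phosphorylated ITAMs, was dim. Signals of 207540_s_at were 26.0, 34.2 and 41.5 with AML1-ETO siRNA by lipid, against 33.4, 8.4 and 22.8 with luciferase siRNA by lipid, with overlap. By nucleofection they were 57.9, 40.2 and 51.7 with AML1-ETO siRNA, against 8.6 and 10.2 with luciferase siRNA, both under 20. The array without siRNA stood at 9.6 and the untransfected arrays at 38.2 and 12.9, so that untransfected cells spanned most of the range. SYK 207540_s_at rose by nucleofection, at least 2.47-fold (adjusted p = 0.0434), and this call was lost under 10 of 22 alternatives, with adjusted p-values up to 0.16. The mean of both methods was a difference of at least 0.86 (adjusted p = 0.0585), which passed under 8 of 22 alternatives. The second SYK probe set, 209269_s_at, ranged from 6.6 to 30.6 over the 14 arrays and fell below the filter. Fitted without the filter its mean difference was −0.01 ± 0.12 (adjusted p = 1), and its nucleofection difference 0.03 ± 0.17 (adjusted p = 1).

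AIF1 rose on 3 of its 4 probe sets. The names of these 3 end in _x_at, a suffix for probe sets that can take signal from related transcripts. The AIF1 probe set without that suffix, 207823_s_at, did not rise. Signals of 215051_x_at were 546, 475 and 681 with AML1-ETO siRNA by lipid, against 390, 391 and 365 with luciferase siRNA by lipid. By nucleofection they were 777, 787 and 713 with AML1-ETO siRNA, against 262 and 284 with luciferase siRNA. The AML1-ETO arrays were all higher than the 8 others, among them the array without siRNA at 195 and the untransfected arrays at 408 and 270. Probe set 209901_x_at gave the widest separation of the AIF1 probe sets by nucleofection, 388, 478 and 402 with AML1-ETO siRNA against 58.6 and 70.9 with luciferase siRNA, a 6.53-fold higher level (adjusted p = 0.00023). The mean log2 differences were 1.97 ± 0.19 for 209901_x_at, 1.34 ± 0.15 for 213095_x_at and 1.02 ± 0.13 for 215051_x_at (adjusted p = 0.000111, 0.000448 and 0.00157). Probe set 207823_s_at stayed between 9.4 and 44.1 on all arrays, with a mean difference of 0.03 ± 0.18 (adjusted p = 0.958). Over the 14 arrays the 3 brighter AIF1 probe sets had r of 0.97 to 0.98 with each other, while 207823_s_at had r of −0.25 to 0.04 with the other tested member probe sets.

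LST1 lies beside AIF1 in the MHC class III region of chromosome 6, its most upstream start 29.0 kb from that of AIF1. All 6 LST1 probe sets rose as the mean of both methods, by 1.10 to 2.12 on the log2 scale (adjusted p between 4.85e-05 and 0.00149). For 211582_x_at the signals were 128.8, 107.4 and 144.7 with AML1-ETO siRNA by lipid, against 90.0, 44.5 and 46.7 with luciferase siRNA by lipid. By nucleofection they were 141.0, 145.9 and 144.5 with AML1-ETO siRNA, against 4.7 and 6.6 with luciferase siRNA. The array without siRNA was also under 20, at 12.9, whereas the untransfected arrays stood at 58.2 and 42.5. Nucleofected cells that had not received the AML1-ETO siRNA were thus the low ones on this probe set. Its nucleofection difference was at least 7.19-fold (adjusted p = 8.62e-05).
On 211581_x_at and 215633_x_at the array without siRNA, at 32.9 and 32.4, lay within the untransfected range (32.4 to 48.3 and 31.3 to 44.8). The luciferase arrays by nucleofection lay below that range on both. On the probe set 210629_x_at nucleofected cells without the AML1-ETO siRNA overlapped, as a group, with untransfected cells. Its signals were 181, 153 and 157 with AML1-ETO siRNA by nucleofection, against 78.8 and 53.0 with luciferase siRNA by nucleofection, while the array without siRNA stood at 64.8. Untransfected cells gave it 82.5 and 67.0. Its nucleofection difference of 1.34 ± 0.22 (adjusted p = 0.00655) stood beside differences of 2.48 to 2.94 for the 5 other LST1 probe sets, 4 of them lower bounds, and these probe sets were not tested against each other. The call of 210629_x_at by nucleofection was lost with only the arrays compared (adjusted p = 0.108) and without luciferase nucleofection replicate 2, at 1.05 ± 0.25 (adjusted p = 0.0743). The names of all 6 also end in _x_at, the suffix for probe sets that can take signal from related transcripts, and probe sets of 1 gene are not independent of each other.

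LAPTM5 rose on both probe sets. Signals of 201721_s_at were 1678, 1720 and 1541 with AML1-ETO siRNA by lipid, against 925, 963 and 977 with luciferase siRNA by lipid. By nucleofection they were 2303, 2748 and 2551 with AML1-ETO siRNA, against 715 and 711 with luciferase siRNA. The array without siRNA gave 726 and the untransfected arrays 835 and 1120, so the 6 AML1-ETO arrays lay above all others. The mean log2 difference was 1.31 ± 0.11 for 201721_s_at (adjusted p = 3.57e-05), a 2.47-fold higher level, and 1.65 ± 0.13 for 201720_s_at (adjusted p = 2.24e-05), a 3.15-fold higher level.

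The comparison within each method asked whether the differences held in both. By nucleofection 13 of 15 member probe sets rose and 0 fell, against a rise in 1.29% of all probe sets tested, and the 2 that did not pass were FCER1G and AIF1 207823_s_at. By lipid only TYROBP rose, 1 of 15, against 0.06% of all probe sets tested. At an unadjusted p below 0.05, 12 of 15 members were higher by lipid, against 1.87% of all probe sets. Every AML1-ETO array lay above every luciferase array for 14 of 15 members by nucleofection (12.4% of all probe sets) and for 10 of 15 by lipid (3.38% of all probe sets). LAPTM5 201721_s_at illustrates the lipid arm, with a difference of 0.78 ± 0.15 and an adjusted p of 0.151, and LST1 214574_x_at had 1.31 ± 0.26 with an adjusted p of 0.194.

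**Figure D2:**
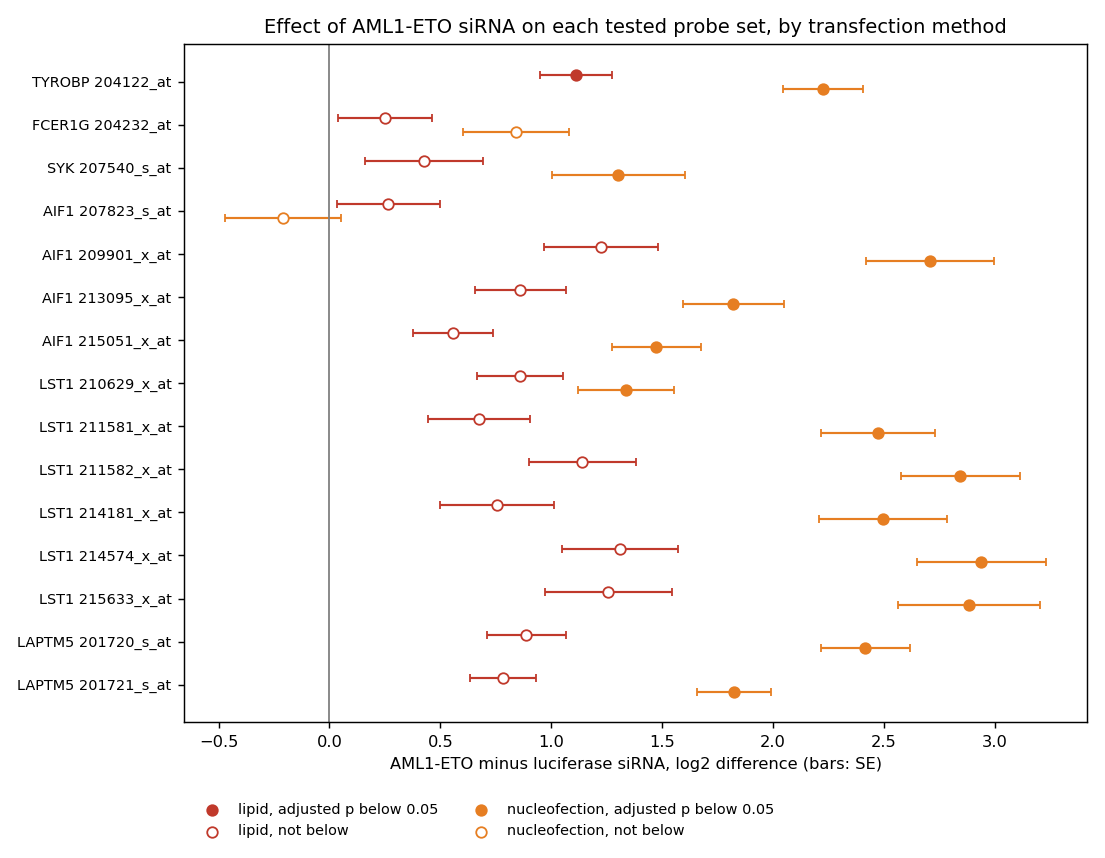
Log2 difference of AML1-ETO minus luciferase siRNA for each of the 15 tested probe sets, by lipid and by nucleofection, with bars for the SE and filled points for an adjusted p below 0.05. Of the nucleofection points 13 are filled, and of the lipid points only that of TYROBP, at 1.11.

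Whether the effect itself differed between methods was tested directly, as the lipid difference minus the nucleofection difference. It passed for 0 of 15 members, against 0.0525% of all probe sets tested, with limma's test. At an unadjusted p below 0.05, 12 of 15 members had a smaller effect by lipid, against 5.01% of all probe sets. The smallest adjusted p-values were those of LAPTM5 201720_s_at, at −1.53 ± 0.27 (adjusted p = 0.062), and LST1 211581_x_at, at −1.80 ± 0.34 (adjusted p = 0.0767). The count reached 3 with quantile normalization and 4 with an intensity trend in the variance, as given under the alternatives.

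Where the gap between methods arose was read from the same fit by comparing methods within each siRNA, a pair of comparisons added after the values were seen and sharing arrays with those above. Over all probe sets the median difference of nucleofection minus lipid was −0.16 within AML1-ETO siRNA and −0.12 within luciferase siRNA, and it was 0.05 and 0.06 with arrays centred on their medians. Within AML1-ETO siRNA, 3 of 15 members were called, against 10.3% of all probe sets tested in either direction. All 3 were higher by nucleofection: TYROBP by 1.24 ± 0.16 (adjusted p = 0.00138), LAPTM5 201720_s_at by 1.03 ± 0.18 (adjusted p = 0.00537) and LAPTM5 201721_s_at by 0.62 ± 0.15 (adjusted p = 0.0229). Within luciferase siRNA, 4 of 15 were called, against 8.45% of all probe sets, and all 4 were LST1 probe sets that were lower by nucleofection. Their differences were −1.45 for 211581_x_at, −1.52 for 211582_x_at, −1.14 for 214181_x_at and −1.37 for 214574_x_at (adjusted p = 0.00655, 0.00655, 0.0302 and 0.0154), the first 3 of which are bounds. TYROBP had 0.13 ± 0.18 in that comparison (adjusted p = 0.708) and none of the 6 LST1 probe sets passed within AML1-ETO siRNA. LAPTM5 201721_s_at lost its call without AML1-ETO lipid replicate 3 or AML1-ETO nucleofection replicate 2 or 3. Of the LST1 calls, that of 214181_x_at was lost without luciferase lipid replicate 1 or 3 or either luciferase nucleofection array, and that of 214574_x_at without luciferase lipid replicate 2 or 3 or luciferase nucleofection replicate 1. Without luciferase lipid replicate 3 or without luciferase nucleofection replicate 1, the luciferase count was 2, and without either untransfected array the AML1-ETO count was 5. With arrays centred on their medians the AML1-ETO count was 6 and the luciferase count 3.

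Each transfected group was then set against untransfected cells, which all 4 comparisons share. With AML1-ETO siRNA by nucleofection 11 of 15 members rose, against 1.67% of all probe sets tested, whose median difference was −0.12, or 0.06 with arrays centred on their medians. TYROBP was at least 5.43-fold higher (adjusted p = 7.04e-05), LAPTM5 201720_s_at 4.37-fold higher (adjusted p = 0.000161) and AIF1 209901_x_at 4.36-fold higher (adjusted p = 0.00172). The count fell to 5 without untransfected replicate 3. With AML1-ETO siRNA by lipid only TYROBP rose, 1 of 15, against 0.06% of all probe sets, at least 2.30-fold (adjusted p = 0.0259), and this call was lost when any 1 of 7 arrays was left out: untransfected replicates 1 and 3, luciferase lipid replicate 3, AML1-ETO lipid replicates 1, 2 and 3, and AML1-ETO nucleofection replicate 3.
Luciferase siRNA by lipid left 0 of 15 members called, against 0.0075% of all probe sets, and 0 had an unadjusted p below 0.05. The 15 differences ran from −0.52 to 0.46. Luciferase siRNA by nucleofection was called for 2 of 15, against 4.88% of all probe sets, and both were LST1 probe sets that fell: 214574_x_at, by 1.90 ± 0.32 (adjusted p = 0.00877), and 211582_x_at, by at least 1.31 ± 0.29 (adjusted p = 0.0271). Both untransfected arrays bore on this, with 0 calls left without replicate 1 and 1 without replicate 3, and 1 was left without either luciferase nucleofection array. The call that remained in these 3 cases was that of 214574_x_at.

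**Figure D3:**
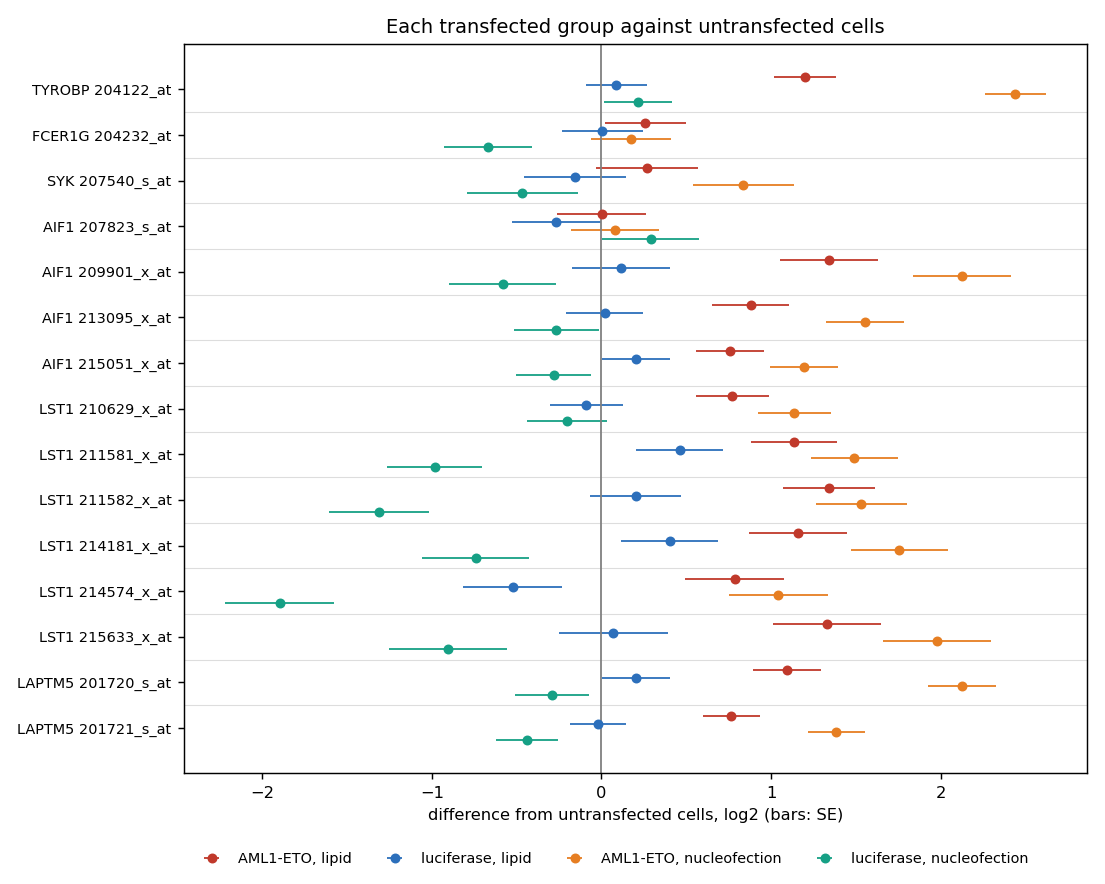
Log2 difference of each transfected group from untransfected cells for the 15 tested probe sets, with bars for the SE. Luciferase siRNA by lipid stays between −0.52 and 0.46, and luciferase siRNA by nucleofection reaches −1.90 at LST1 214574_x_at.

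For TYROBP, AIF1 215051_x_at and LAPTM5 the order of levels was thus AML1-ETO siRNA by nucleofection, then AML1-ETO siRNA by lipid, then the remaining groups. The step between the AML1-ETO groups passed for TYROBP and LAPTM5 and did not pass for AIF1 215051_x_at, at 0.43 ± 0.18 (adjusted p = 0.139). Luciferase lipid and untransfected cells, neighbours in that order except on LAPTM5 201720_s_at, where the array without siRNA stood between them, had no member past the test.
Over the 14 arrays, the 91 pairs among the 14 tested member probe sets without AIF1 207823_s_at had r from 0.43 to 0.98, with a median of 0.88. The arrays share the groups, so these r describe the design as much as the genes. TYROBP and LAPTM5 had r of 0.93 and 0.94, and FCER1G had the lowest r of the 91, 0.43 with TYROBP.

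The genes whose representative probe set ran most like each member were named by Pearson r over the 14 arrays. For TYROBP they were NKG7 (0.95), TESC (0.95) and ATP2B4 (0.95), and for FCER1G they were PKM (0.92), PARL (0.91) and RAC2 (0.90). SYK ran most like SELPLG (0.87), CTSG (0.85) and S100A6 (0.85), and AIF1 most like SELPLG (0.96), ZFP36L2 (0.96) and IGFBP7 (0.95). For LST1 they were PTPN22 (0.95), NKG7 (0.94) and S100A6 (0.93). LAPTM5 followed RNASE2 (0.97), SRGN (0.95) and CTSG (0.95), all of which encode granule proteins of myeloid cells. These values describe arrays that fall into groups, and NKG7 lay under 20 on every luciferase array.

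The rest of the pathway was read from lists of 174 symbols, of which 137 were on the array and 93 tested, with the highest-mean probe set for each gene. Of 11 tested genes listed as receptors that signal through TYROBP or FCER1G, directly or not, 0 rose and 0 fell, and 10 more on the array had no tested probe set. CSF1R, the receptor for macrophage colony-stimulating factor, had the largest difference of the 11, at 0.69 ± 0.23 (adjusted p = 0.202), and FCAR, the IgA Fc receptor, had −0.44 ± 0.17 (adjusted p = 0.301). Of 6 other ITAM genes 0 rose and 0 fell, with CD247 (the T-cell receptor zeta chain) at −0.53 ± 0.18 (adjusted p = 0.206) and CD79A at −0.21 ± 0.22 (adjusted p = 0.709). The Src and Tec family list had 0 calls of 6, with YES1 at −0.37 ± 0.17 (adjusted p = 0.38) and LYN at −0.27 ± 0.14 (adjusted p = 0.41). These counts are from limma's test at an adjusted p below 0.05 on the mean of both methods. In that comparison 0.855% of all probe sets tested rose and 0.383% fell.

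Below SYK, 2 of 23 tested genes rose and 0 fell, against 0.855% and 0.383% of all probe sets tested. SLA, an adaptor that dampens antigen receptor signalling, read 173, 266 and 290 after AML1-ETO siRNA by lipid, against 115, 135 and 142 after luciferase siRNA by lipid. By nucleofection its signals were 187, 266 and 228 after AML1-ETO siRNA, against 82.7 and 93.9 after luciferase siRNA, without overlap in either method. Its mean difference was 1.11 ± 0.16 (adjusted p = 0.00346), and that of PRKCD, protein kinase C delta, was 0.84 ± 0.15 (adjusted p = 0.015). By nucleofection 4 of 23 rose, against 1.29% of all probe sets tested. Beside SLA and PRKCD these were LCP2 (SLP-76, an adaptor) at 0.89 ± 0.19 (adjusted p = 0.033) and RAC2, a GTPase of blood cells, at 0.74 ± 0.16 (adjusted p = 0.0389).

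Of 20 tested ITIM receptors, phosphatases and other inhibitors, 2 rose and 0 fell, both tyrosine phosphatases. As the mean of both methods, 0.855% of all probe sets tested rose and 0.383% fell. PTPN22 had signals of 42.2, 25.2 and 52.5 with AML1-ETO siRNA by lipid, against 15.9, 27.7 and 17.5 with luciferase siRNA by lipid, and 84.8, 75.0 and 69.8 with AML1-ETO siRNA by nucleofection, against 3.5 and 18.2 with luciferase siRNA by nucleofection. Its mean difference was at least 1.35 ± 0.18 (adjusted p = 0.00178), and that of PTPN12 was 1.06 ± 0.15 (adjusted p = 0.0033). All luciferase signals of PTPN22 but 27.7 lay under 20. On the luciferase arrays alone PTPN22 would have lain under the lowest geometric mean signal tested, 22.5. The neighbours of AIF1 and LST1 in the MHC class III region had 0 calls among 9 tested, a median of −0.04, and APOM at 0.12 ± 0.15 and NFKBIL1 at −0.18 ± 0.23 (adjusted p = 0.767 and 0.77). Of 9 lysosomal membrane genes beside LAPTM5, 1 rose, LAMP2 at 0.59 ± 0.11 (adjusted p = 0.0152). The list medians ran from −0.32 in the Src and Tec list to 0.10 below SYK, against −0.07 over all probe sets tested.

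**Figure D4:**
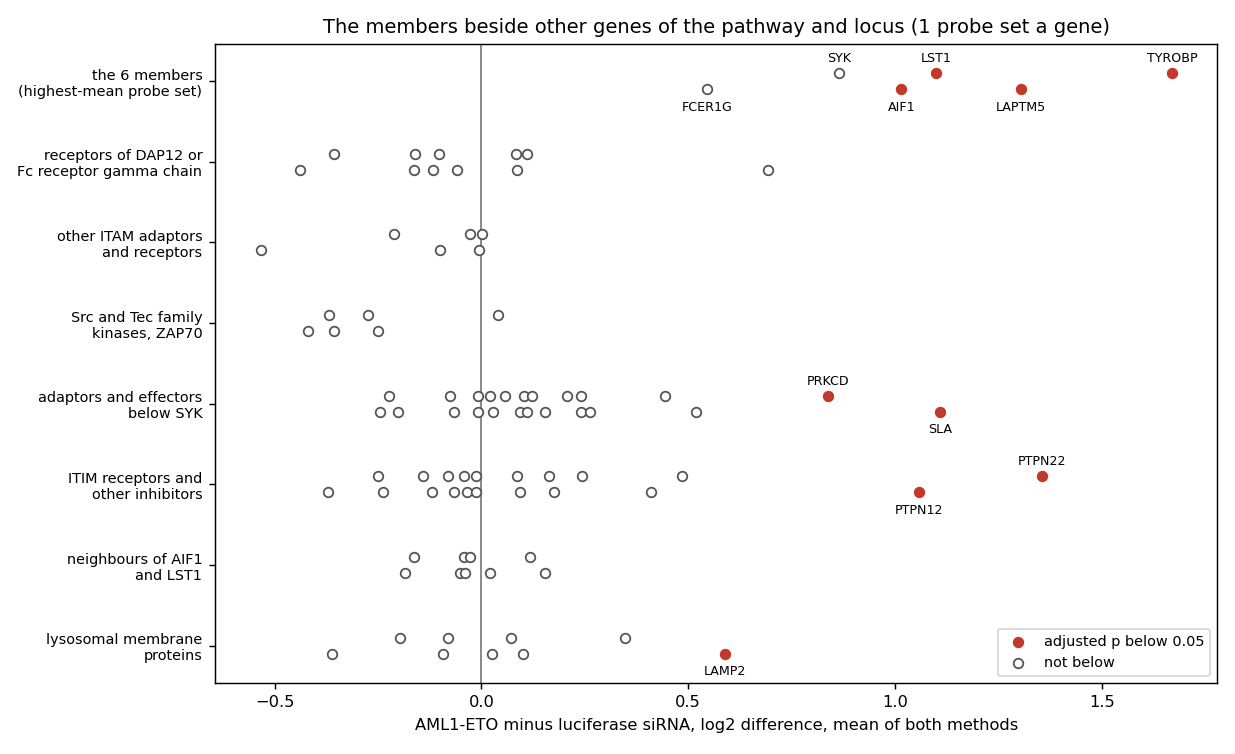
Log2 difference of AML1-ETO minus luciferase siRNA, mean of both methods, for the highest-mean probe set of each member gene and of each tested gene in 7 lists, with filled points for an adjusted p below 0.05. The members run from 0.55 (FCER1G) to 1.67 (TYROBP), and 5 listed genes are filled.

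Markers of other cells were read beside these results. Of 11 monocyte and macrophage markers on the array 4 were tested and 0 called, and 7, CD14 among them, had a mean signal at or below 20. Their summed signal was 174 to 216 with AML1-ETO siRNA by nucleofection, against 232 to 249 with luciferase siRNA by nucleofection, and 174 to 207 against 166 to 197 by lipid in the same order. The median difference of the 4 tested markers was −0.16 as the mean of both methods, −0.29 by nucleofection and −0.03 by lipid. CD14 stayed between 0.771 and 19.3 on all 14 arrays. CSF1R, one of the 4 tested, read 25.0, 70.6 and 48.4 with AML1-ETO siRNA by nucleofection, against 29.0 and 28.6 with luciferase siRNA by nucleofection, with overlap. By lipid it read 51.1, 38.9 and 61.0 with AML1-ETO siRNA, against 34.7, 30.0 and 23.3 with luciferase siRNA, without overlap. Its difference was 0.61 ± 0.34 by nucleofection (adjusted p = 0.379) and 0.77 ± 0.31 by lipid (adjusted p = 0.917). Of 10 lymphoid and natural killer markers 5 were tested and 7 had a mean at or below 20. As the mean of both methods 1 rose, against 0.855% of all probe sets tested. That 1 was NKG7, a granule membrane protein of cytotoxic lymphocytes. It read 35.0, 23.8 and 39.8 with AML1-ETO siRNA by lipid and 52.2, 55.2 and 54.2 by nucleofection, against 1.1 to 1.5 on the 5 luciferase arrays. As all of these luciferase signals were raised to 20, its difference is a lower bound. The lowest geometric mean signal tested was 22.5, so the luciferase arrays alone would not have placed it among the tested probe sets. The summed signal of that list was 273 to 313 with AML1-ETO siRNA by nucleofection, against 238 to 298 with luciferase siRNA by nucleofection, and 224 to 244 against 169 to 244 by lipid. Of the Kasumi-1 markers KIT, CD34 and MPO, 0 were called between AML1-ETO and luciferase siRNA by either method or as their mean, while CD34 fell by 1.00 ± 0.22 (adjusted p = 0.0191) with AML1-ETO siRNA by nucleofection against untransfected cells. The log2 ratio of 3′ to 5′ GAPDH probe sets, a sign of RNA integrity, was −0.18 to −0.11 with AML1-ETO siRNA by nucleofection, against 0.03 to 0.25 with luciferase siRNA by nucleofection, and −0.38 to −0.17 against −0.30 to −0.26 by lipid. For ACTB the same ratio was 0.29 to 0.46 with AML1-ETO siRNA by nucleofection, against 0.38 to 0.84 with luciferase siRNA, with overlap. By lipid the ACTB ratio was 0.31 to 0.59 against 0.30 to 0.38 in the same order. The part of RNA integrity in the nucleofection differences was not tested.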

How the data were processed

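RNA of Kasumi-1 cells was hybridised to 14 single-colour arrays in 6 groups. The authors deposited linear MAS5 intensities, 1 for each probe set (the tool is named in the submitters' processing notes), scaled so that every array had a mean of 138.5; this hides any shift that most genes share. Version, settings and build are not given in the sources used here. Of 22283 probe sets, 19065 had 1 platform symbol, 1043 several and 2107 none, and 68 were controls. Intensities under 20 were raised to 20 and log2 taken. The 60% of non-control probe sets with the highest means (13329) were fitted with lmFit and eBayes of limma 3.58.1 in R 4.3.3, with 6 group means, 8 residual and 5.05 prior degrees of freedom. The number of arrays limits the precision. The fit was tested on simulated data. Replicate numbers were not treated as pairs in the main fit, and the labels do not say whether they mark pairs. Over 15 same-number pairs of arrays, r of the deviations from group means was −0.08 to 0.06. Such values cannot show whether same-number arrays were handled together. Figures were drawn in Python 3.11.15 (pandas 2.3.3, numpy 2.4.6, matplotlib 3.10.9).

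The members and lists were chosen with earlier results of these data known. The genes named are all member probe sets, the called genes of each list (up to 6) or else the 2 with the smallest p, 3 genes per member by likeness, RUNX1T1, the Kasumi-1 markers, and CD14 and CSF1R among the monocyte markers, picked after their values were seen. Alternatives changed the scaling, floor, filter, features, variance model, arrays fitted, replicate block and single arrays.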

Additional observations from a re-analysis of the deposited data

How the results depend on the processing

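The differences of 15 member probe sets in 4 comparisons (60 values) were recomputed under up to 23 alternatives. Of the 1316 results, 1249 kept their direction and their side of the threshold, 24 lost a call, 38 gained one and 5 reversed. All 5 reversals were leave-one-out results of AIF1 207823_s_at, which ran from −0.18 to 0.24 for the mean of both methods (−0.01 when replicate 3 of either lipid group was left out and −0.08 when replicate 2 of AML1-ETO nucleofection was) and from −0.63 to 0.21 by nucleofection.

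The remaining values are counts of member probe sets called. Leaving out 1 array at a time gave 12 to 13 for the mean of both methods, 0 to 1 for lipid, 11 to 13 for nucleofection and 0 to 1 for the difference between methods. Against untransfected cells it gave 0 to 2 for AML1-ETO siRNA by lipid, 5 to 12 for AML1-ETO siRNA by nucleofection, 0 to 3 for luciferase siRNA by nucleofection and 0 throughout for luciferase siRNA by lipid. For nucleofection minus lipid it gave 2 to 5 within either siRNA. By lipid the TYROBP call was lost without any 1 of the 6 lipid arrays or replicate 3 of AML1-ETO nucleofection; LST1 211582_x_at was called in its place without luciferase lipid replicate 1 (adjusted p = 0.0137), and LST1 215633_x_at without AML1-ETO lipid replicate 2 (adjusted p = 0.0386). Quantile normalization gave 3 for the difference between methods and 6 for nucleofection minus lipid within AML1-ETO siRNA, and centring on array medians gave 1 and 6, with 0 for AML1-ETO siRNA by lipid against untransfected cells. For the mean of both methods the counts were 14 with quantile normalization and 13 with centring, and by nucleofection 14 with both. Against untransfected cells, AML1-ETO siRNA by nucleofection had 12 with both, and luciferase siRNA by nucleofection had 3 with quantile normalization. A floor at 64, which left 8 member probe sets tested, gave 6 by lipid, 8 by nucleofection, 2 for the difference between methods, 4 for AML1-ETO siRNA by lipid and 0 for luciferase siRNA by nucleofection against untransfected cells, and 5 (AML1-ETO siRNA) and 1 (luciferase siRNA) for nucleofection minus lipid. An offset of 20 gave 0 by lipid, 2 for the difference between methods and 5 for nucleofection minus lipid within AML1-ETO siRNA. Without the filter the counts were 0 by lipid, 12 by nucleofection, 1 for the difference between methods, 0 for AML1-ETO siRNA by lipid and 1 for luciferase siRNA by nucleofection against untransfected cells, and 2 for nucleofection minus lipid within luciferase siRNA. With 1 probe set a gene, which left 6 tested, they were 4 for the mean, 5 by nucleofection, 4 for AML1-ETO siRNA and 0 for luciferase siRNA by nucleofection against untransfected cells, and 0 for nucleofection minus lipid within luciferase siRNA and 2 within AML1-ETO siRNA. An intensity trend gave 4 by lipid (TYROBP not among them), 4 for the difference between methods, 3 for AML1-ETO siRNA by lipid against untransfected cells and 5 for nucleofection minus lipid within AML1-ETO siRNA. With only the arrays compared, the count was 0 by lipid, 0 for both AML1-ETO siRNA by lipid and luciferase siRNA by nucleofection against untransfected cells, and 1 for nucleofection minus lipid within luciferase siRNA. Smaller shifts under the offset, the trend and the arrays compared are not listed. The calls over all probe sets moved too. By lipid they were 9 in the main fit, 16 with the floor at 64 and 17 with the trend. For the difference between methods they were 7, 23 and 39, and 31 with quantile normalization. For nucleofection minus lipid within AML1-ETO siRNA they were 1374, 1789 and 1946, and 878 with quantile normalization. The replicate number was also used as a replicate block, although the labels do not say whether the numbers pair the arrays. This gave 0 by lipid, 0 for AML1-ETO siRNA by lipid and 1 for luciferase siRNA by nucleofection against untransfected cells, 12 by nucleofection and no other changed count. Apart from the smaller numbers of features or arrays that the floor, the features and the arrays fitted bring by construction, the cause was not tested. Signals near or under 20 (TYROBP outside the AML1-ETO groups, SYK, AIF1 207823_s_at and most LST1 probe sets after luciferase nucleofection) limit the size of the differences that can be read.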
